A study of Mus musculus with 4 samples.

Results

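Extracellular ATP and other nucleotides are danger signals released by stressed or dying cells, and macrophages read them through a set of surface proteins described here in peritoneal exudate cells before and after lipopolysaccharide (LPS), the bacterial outer membrane component sensed by Toll-like receptor 4. The 10 genes encode the ATP-gated ion channels P2rx4 and P2rx7, the G protein-coupled nucleotide receptors P2ry2, P2ry6, P2ry13 and P2ry14, the adenosine receptors Adora2a and Adora2b, and the ectonucleotidases Entpd1 (CD39) and Nt5e (CD73). They were found by matching the RefSeq accession of every array probe to these symbols. All 10 had a probe, 14 probes in all, among 22911 genes named on the array.

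In this system, P2X channels admit cations when ATP binds, and P2X7 is best known in macrophages for triggering the inflammasome that releases interleukin-1 beta. P2Y receptors respond to ATP, ADP, UTP, UDP or nucleotide sugars. CD39 removes phosphates from ATP and ADP to give AMP, CD73 turns AMP into adenosine, and the adenosine receptors encoded by Adora2a and Adora2b raise cyclic AMP, a signal that generally restrains macrophage activation.

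Wild-type and LysM-St18flox mice had received 4% thioglycollate, and the peritoneal lavage was taken 3 days later. Each genotype gave 1 array of unstimulated cells (0 h) and 1 array of cells kept 3 h with LPS, 4 arrays in all, on 1 slide. The labels call the cells peritoneal macrophages. LysM names the lysozyme promoter, which is active in macrophages and granulocytes, and the product of St18 is a transcription factor with zinc fingers. The LPS dose, the age of the mice, whether animals were pooled and whether the wild-type mice carried a floxed allele or a recombinase are not given in the sources used here.

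All values are log2 signals after subtraction of the array's 75th percentile, so 0 is the 75th percentile of that array. With 1 array per group there is no replicate check and no test, and each difference compares 2 arrays. The only error that could be measured was that between spots of 1 probe printed many times on an array. Its standard deviation for a difference between 2 arrays was 0.05 above a signal of 2 (253 probes), 0.11 between -2 and 2 (14 probes) and 0.16 below -2 (12 probes). It leaves out mice, cultures and labelling. Between 52.2% and 55.6% of spots were well above background and none was saturated. All 10 macrophage markers examined, among them Adgre1 and Csf1r, were well above background on all arrays. The brightest St18 probe was well above background on both wild-type arrays and on neither LysM-St18flox array. The position of this probe relative to the floxed region was not analysed here.

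**Figure D1:**
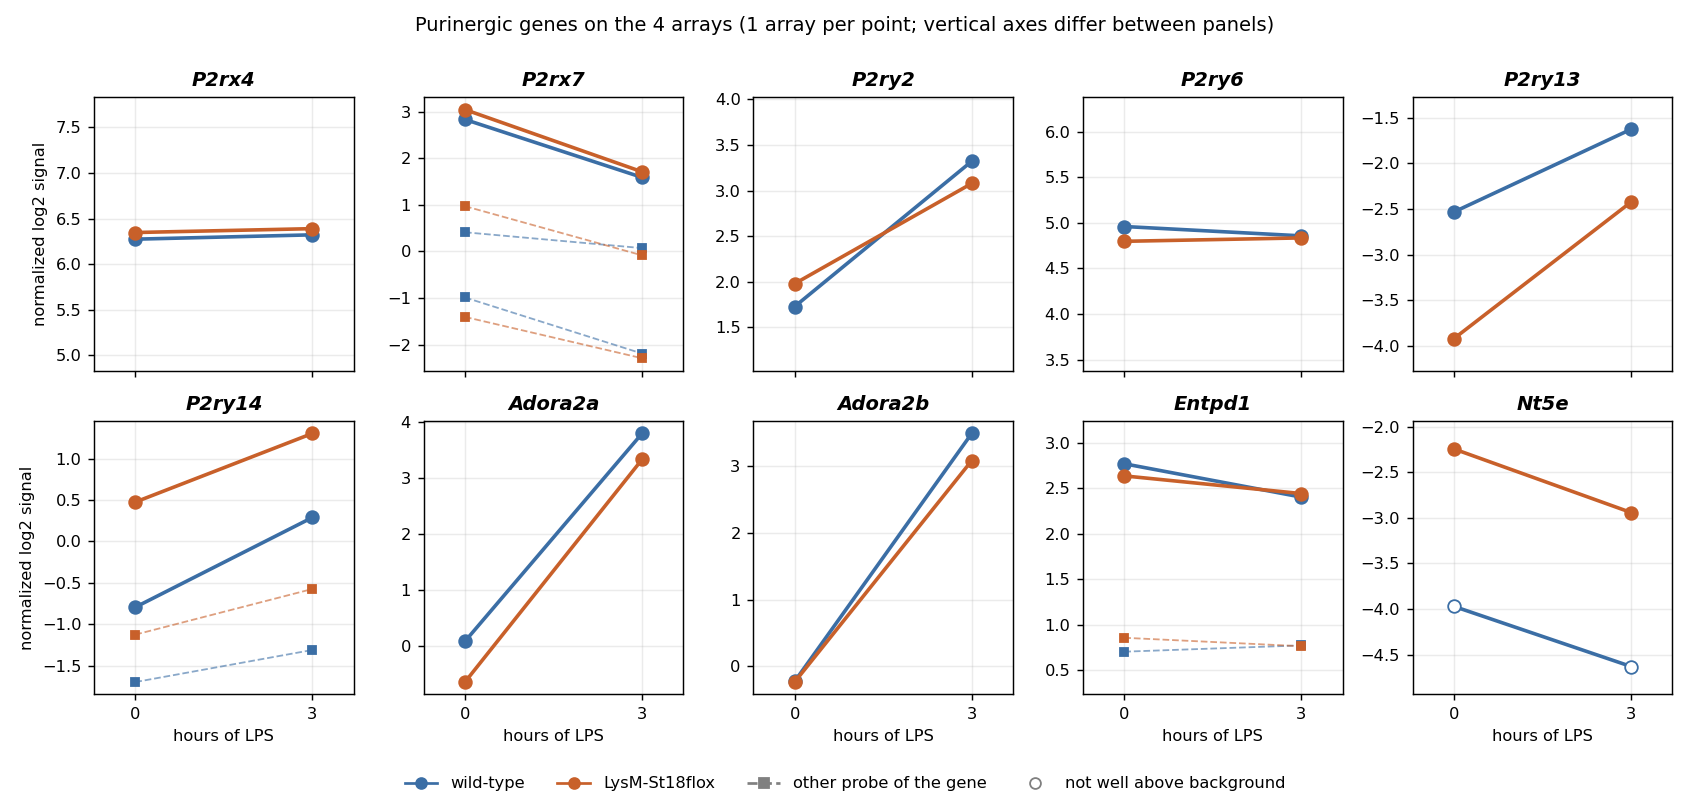
Normalized log2 signal of each of the 10 genes (vertical axis, scaled per panel) at 0 h and 3 h of LPS (horizontal axis) in wild-type (blue) and LysM-St18flox cells (orange), 1 array per point. Circles show the brightest probe, dashed squares any other probe, and open circles a signal not well above background. Adora2a and Adora2b stand above 3 at 3 h and below 0.1 at 0 h in both genotypes, and Nt5e is above background in LysM-St18flox cells only.

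The adenosine receptors had the largest LPS responses of the 10 genes. Adora2a, the receptor with high affinity for adenosine, had a signal of 0.08 in wild-type cells at 0 h, 3.80 in wild-type cells at 3 h, -0.64 in LysM-St18flox cells at 0 h and 3.33 in LysM-St18flox cells at 3 h. Both arrays at 3 h lay far above both at 0 h. LPS was accompanied by a 13.1-fold higher signal in the wild type (3.71 on the log2 scale) and a 15.7-fold higher one in LysM-St18flox cells (3.97). Adora2b, the low-affinity receptor of the pair, had -0.23 at 0 h and 3.50 at 3 h in wild-type cells, with -0.24 and 3.09 in LysM-St18flox cells. The unstimulated arrays were equal within spot error, and the stimulated ones were again higher. Its differences were 13.2-fold (3.72) and 10.0-fold (3.32). In wild-type cells, 112 of 12587 measured genes had a larger LPS response than Adora2b and 115 a larger one than Adora2a. In LysM-St18flox cells these numbers were 126 and 85 of 12975.

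Of the P2Y receptors, P2ry2, a receptor for ATP and UTP that guides phagocytes towards dying cells, was higher after LPS in both genotypes. Its signal was 1.73 at 0 h and 3.32 at 3 h in wild-type cells, against 1.98 and 3.08 in LysM-St18flox cells. This was a 3.02-fold difference in wild-type (1.59) and a 2.14-fold difference in LysM-St18flox cells. The latter, on the log2 scale, was 0.95 with quantile normalization and in the authors' deposited table. P2ry13, an ADP receptor, was dim on every array. Its signal was -2.53 at 0 h and -1.63 at 3 h in wild-type cells, against -3.92 and -2.42 in LysM-St18flox cells, and the 2 arrays at 0 h were each below their partner at 3 h. It was 1.88-fold higher after LPS in wild-type cells (0.91) and 2.82-fold higher in LysM-St18flox cells. The first was 1.05 in the authors' deposited table, and the second 0.98 on the log2 scale with normexp background correction.

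P2ry14, a receptor for UDP-glucose and related sugars, was measured by a pair of probes. The brighter one gave -0.79 at 0 h and 0.29 at 3 h in wild-type cells, against 0.48 and 1.30 in LysM-St18flox cells. Its LPS response was 2.12-fold in wild-type cells (1.08) and 1.78-fold in LysM-St18flox cells (0.83). The dimmer probe had the same direction with smaller values, 0.39 and 0.55, and the mean of both probes gave 0.74 in wild-type cells. P2ry6, a UDP receptor linked to phagocytosis, was nearly level, with 4.96, 4.86, 4.80 and 4.83 at wild-type 0 h, wild-type 3 h, LysM-St18flox 0 h and LysM-St18flox 3 h. Its LPS differences of -0.10 and 0.04 each changed side of 0 under at least 1 other processing.

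The P2X channels differed from each other. P2rx7 was lower after LPS: its brightest probe, on the transcript NM_011027, gave 2.83 at 0 h and 1.59 at 3 h in wild-type cells, against 3.04 and 1.71 in LysM-St18flox cells. Both stimulated arrays lay below both unstimulated ones. The difference was 2.37-fold in wild-type (-1.24) and 2.52-fold in LysM-St18flox cells (-1.33). The other probes of P2rx7 lie on other transcript records and were lower after LPS in both genotypes too. The probe on NM_001038845 gave -1.20 in wild-type and -0.89 in LysM-St18flox cells. The probe on NM_001038887 gave -0.34 in wild-type and -1.06 in LysM-St18flox cells, the widest gap between genotypes among the 3 probes. The mean of the 3 was -0.93 in wild-type cells. P2rx4, the channel that is also found on lysosomes, had signals of 6.27 (0 h) and 6.32 (3 h) in the wild type and 6.35 and 6.39 in LysM-St18flox cells. Its LPS differences of 0.05 and 0.04 were no larger than spot error and were below 0 with quantile normalization.

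The ectonucleotidases had no difference of 2-fold after LPS. The brighter Entpd1 probe gave 2.77 at 0 h and 2.40 at 3 h in wild-type cells, against 2.63 and 2.44 in LysM-St18flox cells. These were differences of -0.37 and -0.19, of which the second turned to 0.04 when arrays were scaled to the median of all probes. The other Entpd1 probe, on the transcript NM_001304721, gave 0.07 and -0.09, both within spot error. Nt5e was well above background in LysM-St18flox cells only, at -2.24 at 0 h and -2.94 at 3 h, and was 1.62-fold lower after LPS there (-0.70). In wild-type cells its probe was not well above background at either time.

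Counted together, in the wild type 4 of 9 measured genes were higher after LPS by 2-fold or more (Adora2a, Adora2b, P2ry2 and P2ry14) and 1 was lower (P2rx7), with a median difference of 0.91. Over all 12587 genes measured, 20.7% were at least 2-fold apart in either direction, with 9.04% of all measured genes higher and 11.6% lower, and the median was -0.11. In LysM-St18flox cells, 4 of 10 were higher (Adora2a, Adora2b, P2ry13 and P2ry2) and 1 was lower (P2rx7), with a median of 0.44, against 17.1% of 12975 genes in either direction (8.12% higher, 8.97% lower) and a median of -0.09. Of the genes called there, 47.5% were higher, and 65.4% with scaling to the median of all probes, which moved the median of all genes to 0.14. Adora2a, Adora2b and P2ry2 were at least 2-fold higher in both genotypes, as were 6.19% of the 12344 genes measured on all 4 arrays. P2rx7 was at least 2-fold lower in both, as were 6.26%.

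**Figure D2:**
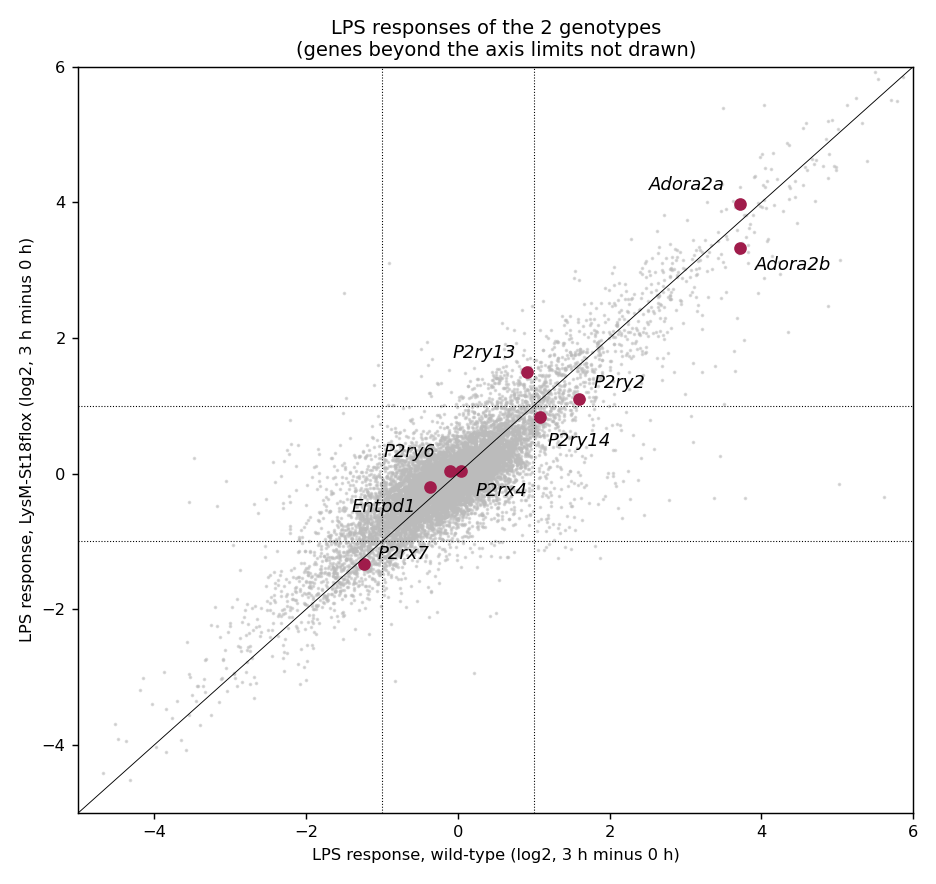
LPS response (log2, 3 h minus 0 h) in wild-type cells (horizontal) and LysM-St18flox cells (vertical), 1 array per group and time. Grey points are the genes measured on all 4 arrays, red points the 9 purinergic genes among them, and dotted lines mark 2-fold. Adora2a (3.71, 3.97) and Adora2b (3.72, 3.32) lie far from the rest of the group, and P2rx7 (-1.24, -1.33) is the red point below both lower dotted lines.

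The LPS responses of the genotypes were set against each other by subtraction, LysM-St18flox minus wild-type. None of the 9 genes differed by 2-fold, against 5.31% of 12344 genes. Of the genes called, 54.7% were higher in LysM-St18flox cells, and 73.8% with scaling to the median of all probes. By the brightest probes the values ran from -0.49 for P2ry2 to 0.59 for P2ry13, with -0.40 for Adora2b and 0.26 for Adora2a. Their median was -0.01. P2rx7 gave -0.09 by its brightest probe and -0.72 and 0.32 by the others. The other P2ry14 probe gave 0.16 and the other Entpd1 probe -0.16, against -0.26 and 0.17 by the brightest. With no replicate arrays it was not tested whether these values differ from 0.

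Promoter windows in the RefSeq table (GRCm38.p6) cover 8 of the 10 genes, without Adora2a and P2ry6. The 250 bases before the start are printed for the 3 genes with a window that were at least 2-fold higher or lower after LPS in both genotypes, so that their start regions can be compared. Each is read 5′ to 3′ on the strand of the gene, and capitals mark a match to a searched motif. The windows lie at chr11:62248734-62248983 (plus strand, Adora2b), chr7:101012054-101012303 (minus strand, P2ry2) and chr5:122643677-122643926 (plus strand, P2rx7).
Adora2b: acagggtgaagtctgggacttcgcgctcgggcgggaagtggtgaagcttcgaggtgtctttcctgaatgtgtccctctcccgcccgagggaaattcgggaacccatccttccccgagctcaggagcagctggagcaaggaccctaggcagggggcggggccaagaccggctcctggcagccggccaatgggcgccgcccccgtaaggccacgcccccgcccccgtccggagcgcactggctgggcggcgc
P2ry2: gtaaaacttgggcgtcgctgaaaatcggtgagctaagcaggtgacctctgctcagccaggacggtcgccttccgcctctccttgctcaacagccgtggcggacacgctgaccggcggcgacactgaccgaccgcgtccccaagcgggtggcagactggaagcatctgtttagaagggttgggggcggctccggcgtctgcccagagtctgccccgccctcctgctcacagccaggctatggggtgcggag
P2rx7: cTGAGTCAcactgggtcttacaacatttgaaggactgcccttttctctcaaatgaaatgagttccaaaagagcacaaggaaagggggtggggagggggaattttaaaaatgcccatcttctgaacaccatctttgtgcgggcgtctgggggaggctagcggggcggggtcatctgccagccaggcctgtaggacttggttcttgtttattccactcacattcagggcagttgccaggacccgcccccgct
Motifs were searched on both strands: the NF-kB consensus, the interferon-stimulated response element, AP-1 as TGANTCA, the cyclic AMP element TGACGTCA and the hypoxia core ACGTG. Of 32851 promoter windows of this length, 3.9%, 2.98%, 6.75%, 1.55% and 16.6% held them, in that order. None of these motifs was found in the Adora2b and P2ry2 windows shown. The P2rx7 window shown holds 1 AP-1 match, TGAGTCA, which reads as AP-1 on both strands. The other P2rx7 window lies within the gene and holds no match. A second P2ry2 window, which overlaps the first and reaches into the transcribed part, holds the hypoxia core on both strands at overlapping positions. An AP-1 match was also found in each of 2 of the 4 windows of P2ry14. The windows differ in base composition: G and C make up 69.6% of the Adora2b window, 65.2% of that of P2ry2 and 53.6% of that of P2rx7, against a median of 52.4% over all windows.

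The table's gene order places some of these genes side by side. P2rx7 and P2rx4 are neighbours with no protein-coding gene between them, and so are P2ry6 and P2ry2. In both pairs 1 gene was at least 2-fold apart after LPS (P2rx7 lower, P2ry2 higher) and the other differed by -0.10 to 0.05.

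Genes whose 4-array profile was closest to that of the genes with the largest mean LPS response upward (Adora2a) and downward (P2rx7) were found among 11609 others, by the Euclidean distance of centred profiles over the 4 arrays. Closest to Adora2a were Ppfia3, a liprin family gene, at a distance of 0.10, Fpr2, a formyl peptide receptor, at 0.25, and the chemokine gene Ccl7 at 0.33. Closest to P2rx7 were the transcription factor gene Klf10 at 0.04 and Ppip5k1 and Rwdd2a at 0.05 each. Many genes share a profile over only 4 arrays.

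Beyond the 10 genes, 51 other genes of nucleotide and adenosine signalling were examined. In wild-type cells 6 of 32 measured were at least 2-fold higher after LPS and 4 lower (median 0.02). Over all measured genes 9.04% were higher and 11.6% lower. In LysM-St18flox cells 8 of 34 were higher and 3 lower (median 0.13), against 8.12% and 8.97% of all measured genes. The higher ones of the 51 were mainly enzymes and transporters, and so were most of the genes measured. Of the 32 in wild-type cells, 8 were listed under ectonucleotidases, 4 under nucleoside transport and 10 under adenosine metabolism. Enpp4, an ectonucleotide pyrophosphatase that splits dinucleotides, had -2.58 at 0 h and 1.49 at 3 h in wild-type cells, with -1.58 and 1.85 in LysM-St18flox cells. That was 16.8-fold higher in wild-type (4.07) and 10.8-fold in LysM-St18flox cells (3.43). Cd38, which consumes NAD outside the cell, was 5.12-fold (2.36) and 4.34-fold (2.12) higher. These were the only higher genes among 8 measured of the 15 other ectonucleotidases listed, and Entpd6 was lower in both genotypes (-1.65 and -1.60). The Entpd6 values come from its brightest probe only, as its other probe stayed under the well-above-background flag throughout.

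Nucleosides enter cells through the Slc28 and Slc29 carriers. Slc28a2, a concentrative carrier with a preference for purine nucleosides, was 5.37-fold (2.42) and 6.33-fold (2.66) higher after LPS. The equilibrative carrier gene Slc29a1 gave -0.58 and -0.34. Inside the cell, 3 of 10 measured genes listed under adenosine metabolism were higher in each genotype and none was lower by 2-fold. They were Nt5c3 (2.52 and 2.98), Ampd3, an AMP deaminase (1.84 and 1.75), and Pnp, which splits inosine and guanosine (1.76 and 2.07). Nt5c3 encodes a cytosolic nucleotidase, and whether it acts on AMP was not examined here. Ada, adenosine deaminase, gave -0.01 and 0.03 by its brightest probe and -0.45 and -0.33 by the other. All 3 further Nt5c3 probes, where measured, were also at least 2-fold higher.

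Among the other receptors, P2ry1, an ADP receptor, was lower after LPS in both genotypes. Its signal was 0.74 at 0 h and -2.30 at 3 h in wild-type cells, with 0.63 and -2.58 in LysM-St18flox cells. This was 8.25-fold (-3.04) and 9.22-fold (-3.20) lower. P2rx3 was also lower in both (-1.35 and -2.28), at signals of -1.65 or less. P2rx5 was higher by at least 5.11-fold in wild-type cells, where it was not well above background at 0 h, and 4.20-fold higher in LysM-St18flox cells. P2rx2 gave -1.06 in wild-type and 0.84 in LysM-St18flox cells. The values of P2rx5 and P2rx2 come from the brightest probe of each gene only. Their other probes stayed under the well-above-background flag throughout, so they gave no second measurement. Adora3, the other adenosine receptor measured, gave 0.68 and 0.19, and Adora1 stayed under the well-above-background flag on all 4 arrays. Of the genes for nucleotide release, the channel gene Panx1 gave 0.53 and 0.36, and Gja1 was higher by at least 5.88-fold in wild-type cells and 3.10-fold higher in LysM-St18flox cells.

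**Figure D3:**
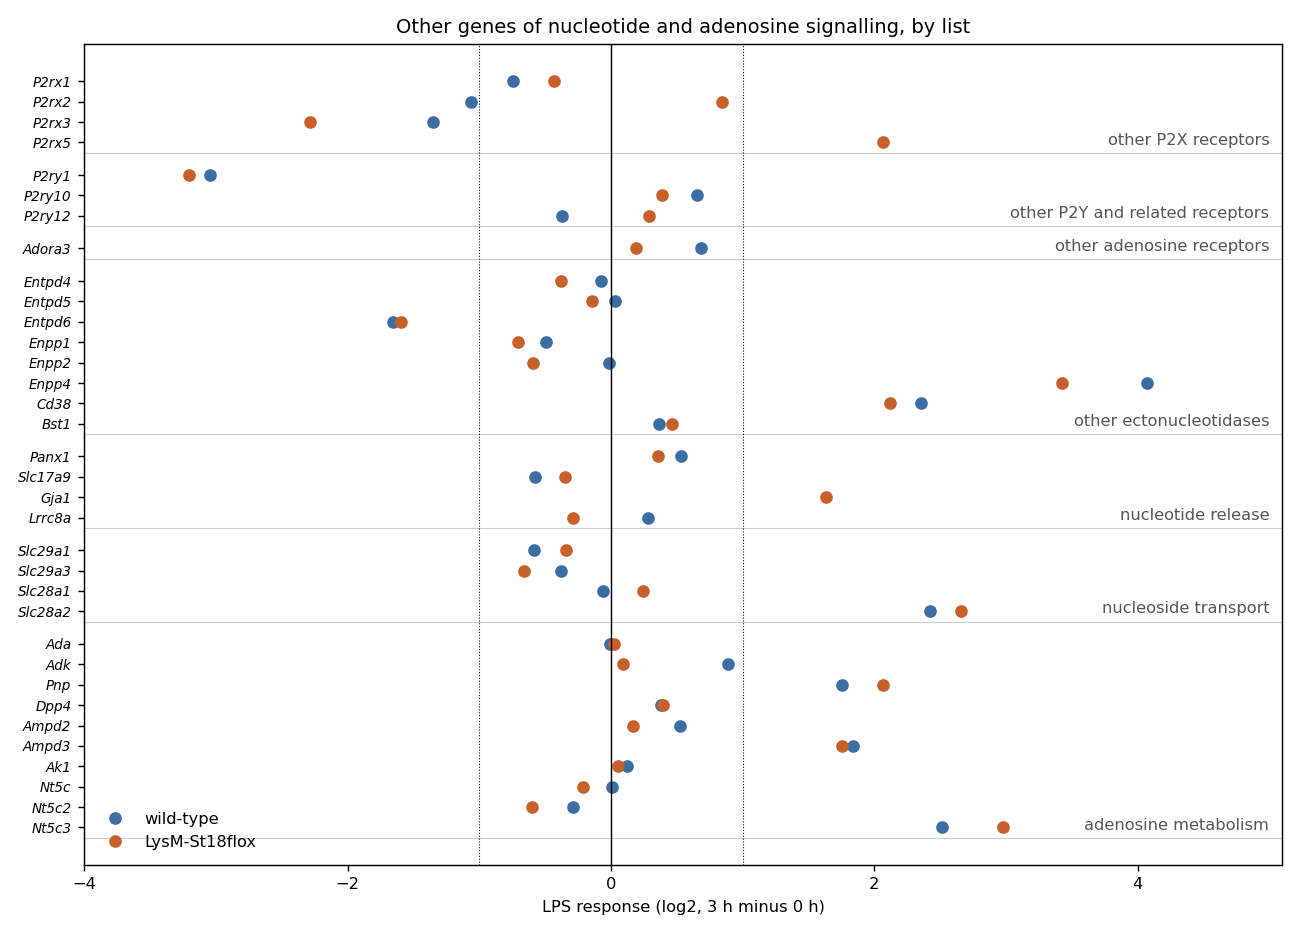
LPS response (log2, 3 h minus 0 h) of the other genes of nucleotide and adenosine signalling, grouped by list, in wild-type (blue) and LysM-St18flox cells (orange), 1 array per group and time. A gene has a point where it was well above background at both times, and dotted lines mark 2-fold. Enpp4 (4.07 and 3.43) is at the right and P2ry1 (-3.04 and -3.20) at the left.

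Between genotypes, 2 of the 9 genes measured in unstimulated cells were at least 2-fold apart, against 6.07% of 12676 genes (3.04% higher with LysM-St18flox, 3.03% lower), and the median of the 9 was -0.01. Of the genes called, 50.1% were higher in LysM-St18flox cells, and 29.9% with scaling to the median of all probes, which moved the median of all genes from -0.03 to -0.18. P2ry14 was 2.41-fold higher in LysM-St18flox cells by its brighter probe (1.27) and 1.49-fold higher by the other (0.57), with 0.92 for the mean of both. P2ry13 was 2.62-fold lower (-1.39), on a processed intensity of 116 against 70.4, and its difference was -0.99 with normexp correction. Adora2a was 1.65-fold lower (-0.73), and Adora2b differed by -0.01. P2rx4, P2rx7, P2ry2, P2ry6 and Entpd1 lay between -0.16 and 0.25 by their brightest probes. The other P2rx7 probes lay beyond this range in opposite directions, at 0.56 (NM_001038887) and -0.42 (NM_001038845), and the other Entpd1 probe gave 0.15.

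At 3 h, 1 of 9 was at least 2-fold apart, against 3.22% of 13048 genes (1.82% higher, 1.4% lower). P2ry14 was 2.02-fold higher in LysM-St18flox cells by its brighter probe (1.02) and 1.67-fold higher by the other (0.74), with 0.88 for the mean of both. The brighter probe gave 0.99 with normexp correction. P2ry14 was thus 2-fold higher at both times in the main processing, as were 0.834% of 12344 genes, while 0.454% were lower at both. P2ry13 was 1.74-fold lower (-0.80), Adora2a 1.38-fold lower (-0.46) and Adora2b 1.33-fold lower (-0.41). P2ry2 differed by -0.24, after 0.25 at 0 h. P2rx7 differed by 0.12 by its brightest probe and by -0.16 and -0.10 by the others, and the remaining genes were within 0.07 of 0.

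Nt5e was well above background in LysM-St18flox cells only. Its processed intensity was 42.8 at 0 h and 30.5 at 3 h in wild-type cells, neither well above background, and 225 and 115 in LysM-St18flox cells. The LysM-St18flox signal was thus higher by 3.31-fold at 0 h and by at least 2.76-fold at 3 h. For these values the wild-type side was the probe's signal or the lowest signal well above background on that array, whichever was higher. At 0 h it was the probe's own signal, so 3.31-fold is the measured ratio, with no margin for error. Both values rest on 1 probe. Of the other pathway genes, Adora3 was 2.95-fold higher in LysM-St18flox cells at 0 h (1.56) and 2.10-fold at 3 h (1.07), and P2ry10, a receptor common on lymphocytes, was 2.37-fold higher at 0 h (1.25) and gave 0.98 at 3 h. The other P2ry10 probe gave 0.94 at 0 h and 0.90 at 3 h. Ak1, an adenylate kinase, was lower at both times (-1.01 and -1.08), and Enpp2, which makes lysophosphatidic acid, was lower at 3 h (-1.50).

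Markers of other cells in the exudate moved with genotype beside these genes. The summed level of the 10 B cell markers, in units of the array's 75th percentile, was 4.76 to 6.36 in wild-type and 19.4 to 24.5 in LysM-St18flox cells, and 6 of 8 measured were at least 2-fold higher at 0 h. The 10 large peritoneal macrophage markers summed to 22.5 to 27.6 and 31.4 to 33.6, with 4 of 10 higher and 1 lower. The 10 T and NK cell markers summed to 5.57 to 6.11 and 8.61 to 10.5 (3 of 6 higher, 1 lower), with Cd8a and Ncr1 not well above background anywhere. Without Cd2, the brightest of them, the sums were 4.17 to 4.88 and 4.49 to 6.28. The 9 mast cell markers with a probe summed to 5.31 to 16.1 and 9.77 to 17.8 (3 of 7 higher), and to 1.95 to 2.32 and 6.94 to 7.22 without the brightest, Hdc. The 8 eosinophil markers summed to 6.91 to 7.70 and 13.6 in both (3 of 6 higher). Ms4a2 of the mast cell list and Epx and Prg2 of the eosinophil list were not well above background anywhere. Erythroid markers summed to 9.72 to 11.3 and 82.7 to 96.6 (4 of 4 measured higher). At 3 h, the numbers higher by 2-fold were 5 of 8 (B cell) and 5 of 8 (T and NK cell). They were 4 of 6 (mast cell), 1 of 6 (eosinophil) and 5 of 5 (erythroid). Of the large peritoneal macrophage markers, 3 of 10 were higher and 1 was lower. Over all measured genes, 3.04% were higher and 3.03% lower at 0 h, and 1.82% and 1.4% at 3 h.

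Of the 10 mesothelial and fibroblast markers, 5 of 8 measured at 0 h were lower with LysM-St18flox by 2-fold or more. At 3 h, 6 of 8 were. The sums of these markers, 83.3 to 169 and 41.2 to 122, were mostly Pdpn (90.5% to 97.6%). Without Pdpn they were 7.94 to 8.21 and 2.88 to 3.46. The 9 neutrophil markers with a probe summed to 157 to 245 and 160 to 171. Without Csf3r, itself higher with LysM-St18flox at 0 h (0.69), the sums were 76.3 to 108 and 30.7 to 35.5. Of 8 measured at 0 h, 4 were at least 2-fold lower and the other 4 were higher by less (0.38 to 0.81). At 3 h, 3 of 7 were at least 2-fold lower and 1 was higher. The sums of the platelet and dendritic cell lists were nearly single genes, Pf4 (99.8% on each array) and Siglech (94.5% to 97.8%). The log2 difference between genotypes at 0 h was -0.98 for Pf4 and -0.02 for Siglech. Without Siglech the dendritic cell sums were 2.34 to 6.21 in wild-type and 4.71 to 7.42 in LysM-St18flox cells. Of this list, 1 of 4 measured genes was higher at 0 h and 0 of 7 at 3 h. Without Pf4 the platelet sums were 0.264 to 0.398 and 0.194 to 0.212. Macrophage markers summed to 715 to 797 and 630 to 738, with 1 of 10 higher at 0 h. With LPS, Hdc was 4.72-fold, Pdpn 2.14-fold and Csf3r 1.69-fold higher in wild-type cells, while the sums without them went from 2.32 to 1.95 (mast cell), 7.94 to 8.21 (mesothelial and fibroblast) and 76.3 to 108 (neutrophil). The part of these cells in the LPS responses above and in the values of P2ry14, P2ry13, Nt5e, Adora3 and P2ry10 was not tested. In a bulk sample, more cells of a type and more RNA per cell cannot be told apart.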

How the data were processed

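The deposited spot intensity values come from 1-colour (Cy3) arrays whose images were read, per the submitters' processing notes, by Agilent Feature Extraction 11.0.1.1, with background subtraction and spatial detrending but no normalization between arrays, per the file headers. The deposited value table holds log2 values; how they were normalized is not stated in the labels or headers. Its 4 columns share the same sorted values (within 0.001) and a median of 9.58. Each correlated at 0.99994 or more with its own array, so scale and direction are known. Quantile normalization gives columns with the same sorted values, so this table and that alternative are not separate checks. Other steps behind the table are not known.

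From the intensities, spots with outlier flags and controls were left out, log2 values of a probe's spots were averaged, and the array's 75th percentile over spots was subtracted (Python 3.11.15, pandas 2.3.3). Accessions without versions were matched to the RefSeq table of GRCm38.p6: 32994 of 56605 probes had 1 symbol, none several. The headers name another build, so coordinates are given only for the promoter sequences of that table. Each gene took the value of its brightest probe over 4 arrays. Other probes are given beside it for the 10 genes, and for further genes only where named. A gene was measured where its brightest probe was well above background on both arrays compared, and counted at a difference of 2-fold. The text names all 10 genes, at most 2 further genes per pathway list and comparison by size, and the 3 nearest profiles of 2 genes; a few pathway genes were named after their values were seen. No p-value was computed. The planned protein comparison was not run. The alternatives were normexp (limma 3.58.1, offset 50, median spot signals), quantile normalization, other scalings, probe rules and filters, the deposited table and a 1.5-fold threshold. The script was tested on simulated data. The genes and lists were chosen with earlier results of these data known. A gene-order result and a marker are not reported here.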

Additional observations from a re-analysis of the deposited data

How the results depend on the processing

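No paired analysis was possible because each group had 1 array, and for the same reason no array could be left out. Over 8 alternatives, none of the differences of 2-fold or more of the 10 genes changed sign. Some smaller differences did, among them the LPS responses of P2rx4 and P2ry6 in both genotypes. Of 366 values, the smaller differences included, 251 moved by less than the spot error and 115 by more. Adora2a and Adora2b stayed past 2-fold after LPS in every one (3.52 to 3.78 and 3.61 to 3.79 in wild-type cells). In wild-type cells 4 of the 10 genes were at least 2-fold higher after LPS and 1 lower. These numbers were 3 and 0 with the mean of all probes, and 3 and 1 with the 75th percentile of probes above background. They were 5 and 1 in the deposited table and at 1.5-fold, which 42.1% of all genes passed. In LysM-St18flox cells they were 4 and 1. They were 3 and 1 with normexp correction, quantile normalization or the deposited table, and 5 and 1 with scaling to the median. At 1.5-fold, which 34.7% of all genes passed, they were 5 and 2. Between genotypes at 0 h the number past 2-fold was 2, and 1 with normexp correction or the mean of all probes. It was 3 without a background filter or at 1.5-fold, which 20.9% of all genes passed. At 3 h it was 1, 0 with normexp correction or the mean of all probes, and 2 without a background filter or at 1.5-fold, which 8.87% of all genes passed. For the difference of the LPS responses it was 0, and 1 at 1.5-fold, which 17.5% passed. The cause was not tested. Over all genes, normexp correction gave 481 (main 769) between genotypes at 0 h, 232 (420) at 3 h and 384 (655) for the difference of the LPS responses. Without a background filter, which tests more genes, the counts were 4982 (2601) and 4066 (2218) for the LPS responses, 2820 and 2032 between genotypes and 3563 for the difference. At 1.5-fold they were 5295, 4497, 2654, 1158 and 2155. Signal over background limits P2ry13 and Nt5e most, and the deposited table does not list the Nt5e probe.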
